A study of Homo sapiens with 6 samples.

Results

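Long noncoding RNA (lncRNA) genes whose ends lie away from protein-coding genes were examined for MYC binding in MIAPaCa2, an established human pancreatic ductal adenocarcinoma cell line. The genes were taken from the RefSeq table of GRCh38.p14: biotype lncRNA, no outermost end within 2000 bp of an outermost end of a protein-coding gene, and without the SNHG genes, GAS5, PVT1, NEAT1 and MALAT1. This gave 14198 genes, out of 18303 lncRNA genes and 59679 genes of all kinds on chromosomes 1 to 22, X and Y. All cells had been without serum for 48 hours. For 3 hours they were then given medium conditioned by fibroblasts of tumours (cancer-associated fibroblasts), here called CM, or fresh DMEM as the control, and MYC was immunoprecipitated with a Cell Signaling Technology antibody. Each condition had 2 immunoprecipitated libraries with a peak list each, and 1 input that was not analysed here. The labels do not say whether replicate libraries started from separate cultures, so the spread between them may be technical. The p-values come from relabelling or sign changes of these libraries and hold for them alone.

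The transcription factor MYC forms a dimer with MAX that binds DNA most tightly at the E-box CACGTG, and in growing tumour cells it occupies most active promoters that are rich in CpG. lncRNA genes are transcribed by RNA polymerase II like coding genes, but most are expressed weakly and in few tissues. A smaller number are abundant, host microRNAs or small nucleolar RNAs in their introns, or were named for their response to MYC.

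A gene counted as bound in a library if the distance from a peak to one of its outermost ends was at most 1000 bp. There were 15304 and 12797 peaks for CM libraries 1 and 2, and 4657 and 7652 for DMEM libraries 1 and 2. The files give no read counts, so depth is unknown, and every count is one of peaks at the authors' threshold, not a level of binding. Scores are the authors' own values for a peak. They are given as a percentile, the place of the peak by score within its own list, from 0 for the lowest to 100 for the highest.

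The promoters of 8 of these lncRNA genes are shown here. They have the highest mean percentile in each group described below among genes whose promoter a peak overlapped in both CM libraries. For the first group the mean was taken over all 4 lists, and for the others over the CM lists. Each runs from 250 bases before to 50 bases after an annotated start, 5′ to 3′ on the gene's strand, from the RefSeq table of GRCh38.p14 promoters. Capitals mark the E-box CACGTG and its variant CACGCG, read as CGCGTG on the other strand. The first 4 belong to genes bound in all 4 libraries, at chr7:1742261-1742560 (minus strand), chr5:154754971-154755270 (minus), chr13:91347437-91347736 (plus) and chr21:42879462-42879761 (plus).
ELFN1-AS1: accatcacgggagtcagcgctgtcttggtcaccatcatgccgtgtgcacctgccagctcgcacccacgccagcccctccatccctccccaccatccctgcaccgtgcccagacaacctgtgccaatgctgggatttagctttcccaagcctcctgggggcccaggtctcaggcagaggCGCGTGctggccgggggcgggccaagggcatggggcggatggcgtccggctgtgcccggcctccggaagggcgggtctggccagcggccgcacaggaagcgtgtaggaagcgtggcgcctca
LOC112267936: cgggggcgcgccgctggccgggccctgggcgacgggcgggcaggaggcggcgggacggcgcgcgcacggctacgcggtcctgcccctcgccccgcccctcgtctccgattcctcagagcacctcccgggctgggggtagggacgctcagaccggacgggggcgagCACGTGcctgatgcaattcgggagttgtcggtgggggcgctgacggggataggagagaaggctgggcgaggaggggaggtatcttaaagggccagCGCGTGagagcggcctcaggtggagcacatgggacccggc
MIR17HG: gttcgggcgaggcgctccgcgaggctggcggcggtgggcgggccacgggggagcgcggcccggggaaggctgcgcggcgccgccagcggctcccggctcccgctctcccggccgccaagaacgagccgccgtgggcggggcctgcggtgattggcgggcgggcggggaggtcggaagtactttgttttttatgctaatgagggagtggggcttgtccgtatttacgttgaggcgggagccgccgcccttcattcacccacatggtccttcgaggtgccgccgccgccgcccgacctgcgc
LOC105372817: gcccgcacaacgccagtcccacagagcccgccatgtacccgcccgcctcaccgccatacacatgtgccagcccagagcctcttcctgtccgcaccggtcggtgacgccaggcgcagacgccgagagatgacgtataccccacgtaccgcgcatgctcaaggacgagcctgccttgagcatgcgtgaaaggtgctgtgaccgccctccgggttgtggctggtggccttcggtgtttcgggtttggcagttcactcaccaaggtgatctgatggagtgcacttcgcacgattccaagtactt
The next pair, at chr5:108728212-108728511 and chr7:333216-333515, both on the minus strand, had peaks in CM alone.
LINC01023: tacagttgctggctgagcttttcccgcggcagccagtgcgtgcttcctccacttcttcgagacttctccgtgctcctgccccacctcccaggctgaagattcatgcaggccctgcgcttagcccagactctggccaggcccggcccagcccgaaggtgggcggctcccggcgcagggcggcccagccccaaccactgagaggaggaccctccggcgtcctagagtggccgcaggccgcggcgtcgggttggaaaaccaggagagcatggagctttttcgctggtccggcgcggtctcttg
LOC105375118: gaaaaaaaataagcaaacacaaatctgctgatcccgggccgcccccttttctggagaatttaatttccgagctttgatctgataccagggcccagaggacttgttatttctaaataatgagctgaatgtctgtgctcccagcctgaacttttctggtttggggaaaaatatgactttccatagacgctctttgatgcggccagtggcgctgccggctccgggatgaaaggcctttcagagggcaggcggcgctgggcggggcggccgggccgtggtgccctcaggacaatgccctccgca
The last pair belongs to lncRNA genes studied in cancer, at chr5:112160276-112160575 and chr12:30795431-30795730, both on the plus strand.
EPB41L4A-AS1: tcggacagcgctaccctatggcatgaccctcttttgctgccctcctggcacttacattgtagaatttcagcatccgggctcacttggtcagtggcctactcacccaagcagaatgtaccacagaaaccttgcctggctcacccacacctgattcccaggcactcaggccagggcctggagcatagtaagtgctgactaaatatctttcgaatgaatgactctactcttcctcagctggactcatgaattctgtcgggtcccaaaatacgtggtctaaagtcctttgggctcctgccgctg
LINC00941: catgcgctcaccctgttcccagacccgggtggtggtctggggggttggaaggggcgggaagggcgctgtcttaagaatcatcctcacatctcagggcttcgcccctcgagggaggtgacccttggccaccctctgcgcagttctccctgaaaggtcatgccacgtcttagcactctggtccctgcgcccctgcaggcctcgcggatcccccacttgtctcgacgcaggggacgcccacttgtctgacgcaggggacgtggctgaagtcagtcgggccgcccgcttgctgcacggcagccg
LOC112267936 was the one promoter of the 8 with a CACGTG, whose first base lay at -85 from the start (the start being 0), and it had a CGCGTG at 10. ELFN1-AS1 had a CGCGTG at -72. The other 6 held neither motif in this window, and all 8 were overlapped by a peak in both CM libraries.

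lncRNA genes away from coding ends were rarely bound. In CM, 601 and 515 of the 14198 genes had a peak in libraries 1 and 2, and in DMEM 168 and 311. The mean was 558 ± 60.8 genes in CM and 239.5 ± 101 in DMEM (SD, n = 2 each), and the lowest CM library lay above the highest DMEM library. The geometric mean for CM was 2.43 times that for DMEM (exact permutation test, two-sided, p = 0.333, which is the lowest value possible with 2 libraries a side). The lengths of the lists moved with this difference. With each list limited to its 4657 highest-scoring peaks, 241 and 215 genes were bound in CM and 168 and 211 in DMEM, a ratio of 1.21.

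The share bound was 4.23% and 3.63% in CM and 1.18% and 2.19% in DMEM. Among all genes of the table it was 20.2% and 18.6% in CM and 7.71% and 12.7% in DMEM. Protein-coding genes had 43.9% and 40.9% in CM and 16.8% and 28.1% in DMEM, which is 10.4 and 11.3 times the lncRNA share in CM and 14.2 and 12.8 times in DMEM. The lncRNA genes were lower than the 20037 coding genes in 4 of 4 libraries, by a mean of -29.6 percentage points (exact two-sided sign permutation over the 4 libraries, p = 0.125, the smallest it allows). The remaining 4105 lncRNA genes, nearly all with an end close to a coding one, had 46.1% and 42.7% in CM and 18.4% and 29.9% in DMEM. Set against these the difference averaged -31.5 points, again lower in 4 of 4 libraries (exact sign permutation, p = 0.125). Whether the peaks at these neighbours belong to the lncRNA or to the coding gene cannot be told apart in these data.

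**Figure D1:**
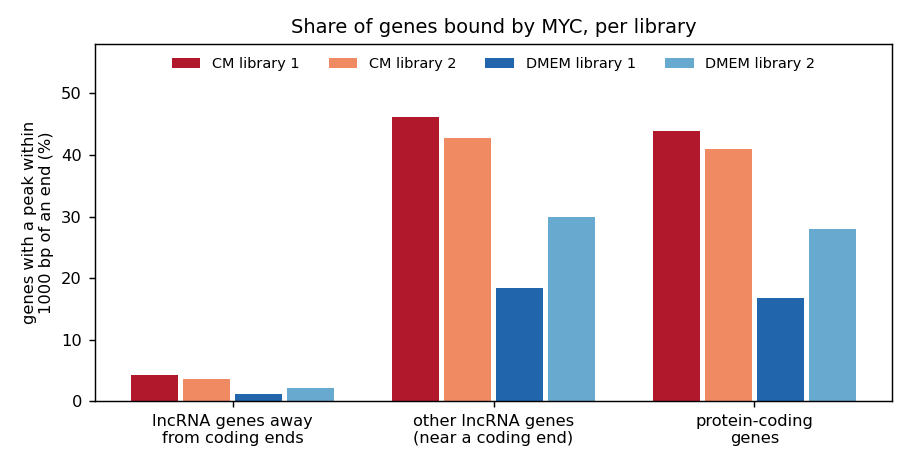
Percent of genes with a MYC peak within 1000 bp of an outermost end (y axis) in lncRNA genes away from coding ends, other lncRNA genes and protein-coding genes, 1 bar per library. The lncRNA genes away from coding ends sit between 1.18% and 4.23%, and both other classes between 16.8% and 46.1%.

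Of the 14198 genes, 466 (3.28%) were bound in both CM libraries, against 17.7% of all genes, and 154 (1.08%) in both DMEM libraries, against 7.23%. All 4 libraries had a peak at 153 genes (1.08%, against 7.21% of all genes). Another 166 were bound in CM alone, meaning that both CM lists and no DMEM list had a peak (1.17%, against 4.99%). The other 147 genes bound in CM had a peak in 1 DMEM library, 8 of them in DMEM library 1 and 139 in DMEM library 2, the longer list. No gene was bound in DMEM alone, as for all genes together, where 0% were. Of the genes bound in CM, 32.8% had a peak in all 4 libraries, compared with 40.6% of coding genes, a difference of -7.74 percentage points that was not tested.

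The number of genes bound in CM alone depended on single libraries and on list length. In lists of equal length, 30 genes were bound in CM alone and 7 in DMEM alone. Without DMEM library 2 the genes bound in CM alone numbered 305, and without CM library 2 they numbered 286. Genes bound in all libraries numbered 292 without DMEM library 1.

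Peaks ranked highest by score where all 4 libraries had one. The groups were formed by which of these same peaks passed the authors' threshold. This order is therefore partly built in and does not measure a level of binding. At the 153 genes bound throughout, the median percentile of the highest-scoring peak was 87.1 and 82.7 in CM and 56.5 and 69.6 in DMEM. At the 166 genes bound in CM alone it was 48.3 and 38.2 in the 2 CM libraries, and at the 147 with 1 DMEM peak 67.4 and 57.5. Median widths went the same way, 1696 and 1195 bp in CM at the genes bound throughout, and 651.5 and 436.5 bp at those bound in CM alone. The highest-scoring peaks of all 4 libraries had bases in common at 122 of the 153 genes. At the other 31, MINCR among them, they did not.

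The highest-scoring lncRNA peak in all 4 libraries was that of ELFN1-AS1, on chromosome 7 at 1738630 to 1742310, an antisense gene inside ELFN1 that the RefSeq table also lists as MYCLo-2. Its peaks ranked 3 and 3 in the CM lists and 3 and 2 in the DMEM lists, with scores of 2249 and 1743 in CM and 899 and 1643 in DMEM. They spanned 1740099 to 1743979 and 1741153 to 1743484 in CM, and 1741030 to 1743900 and 1741470 to 1743080 in DMEM. All 4 cover its start, and no coding start of the promoter table lay within 2000 bp of either end.

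LOC112267936, on chromosome 5 at 154751674 to 154755020, came next, with ranks 4 and 7 in CM and 5 and 7 in DMEM. It lies inside LARP1, which encodes an RNA-binding regulator of ribosomal protein mRNAs, and a coding start of the promoter table lay 357 bp from its end. Its peaks were 4448 and 4101 bp wide in CM and 3241 and 2696 bp in DMEM, and all 4 also lay at a coding start. LOC105371452 in MSTO1, LOC105372817 in WDR4 and BRWD1-AS2 in BRWD1 were likewise 173 to 561 bp from a coding start. Their mean percentiles over the 4 lists were 98.6, 97.1 and 95.6. LOC124902225, at 96.2, lies 2095 bp from an end of ANP32B, and at least 1 of its highest-scoring peaks also lay at that end.

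Other genes in this leading group stood clear of any listed coding start. LINC00921, on chromosome 16 at 3263768 to 3267567, had percentiles of 98.2 and 96.9 in CM and 98.1 and 97.6 in DMEM. LOC124903558, on chromosome 15 at 92807905 to 92809884, had 98.6 and 95.3 in CM and 97.2 and 98.4 in DMEM, and the nearest coding end was 90440 bp away. Both lay above a percentile of 95 in all 4 lists. EPB41L4A-AS1, which holds the small nucleolar RNA gene SNORA13, had 96.8 and 96.3 in CM and 97.2 and 94.8 in DMEM. LINC01730 had 98.2 and 98.1 in CM and 92.0 and 95.1 in DMEM, and at least 1 of its highest-scoring peaks lay within 1000 bp of an end of CDC25B.

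The 12 leading genes included 2 hosts of microRNAs. MIR17HG, the host of the miR-17-92 cluster and a well-known MYC target, had percentiles of 99.8 and 99.6 in CM and 92.0 and 97.8 in DMEM. MIRLET7A1HG, a host of let-7 microRNAs on chromosome 9 at 94166258 to 94200905, had 98.4 and 96.3 in CM and 95.9 and 97.5 in DMEM. Another host, MIRLET7IHG, chosen after its values were seen, had 95.6 and 91.6 in CM and 78.2 and 77.4 in DMEM. Percentiles come from lists of unequal length, so they order genes within a library and do not measure change.

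**Figure D2:**
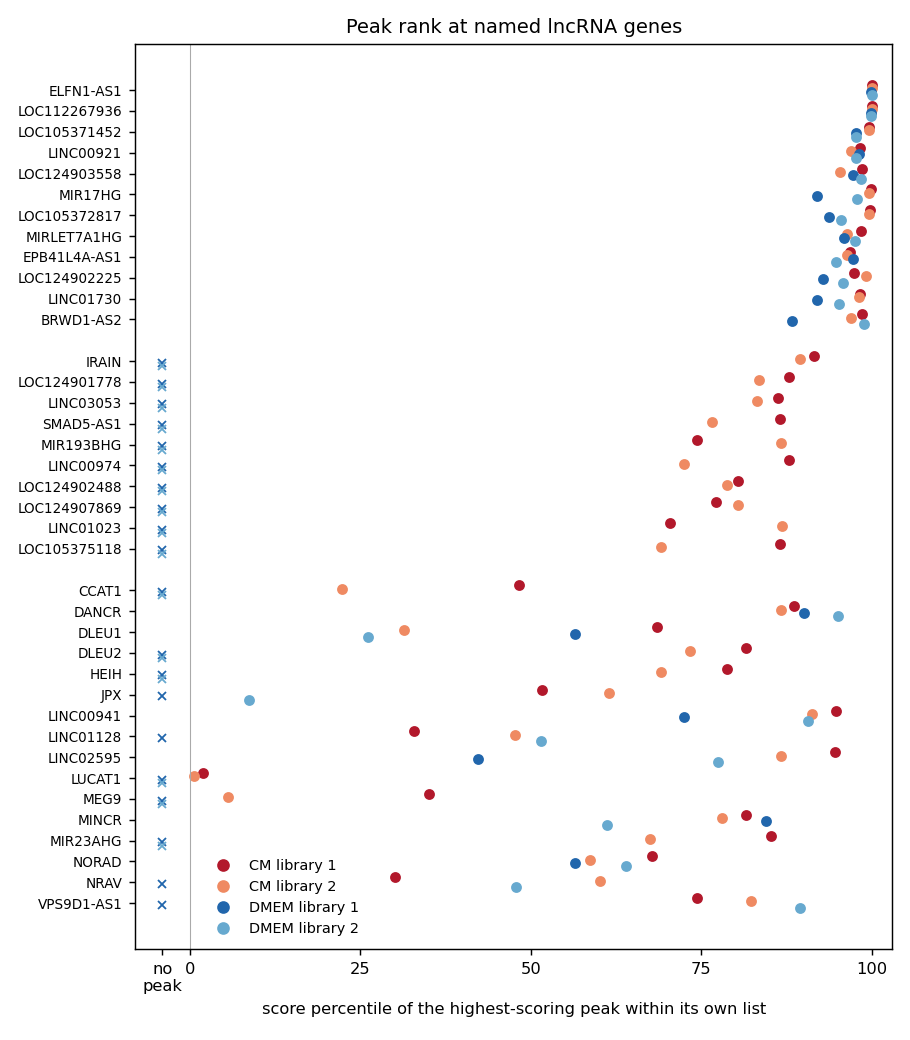
Score percentile within its own list (x axis) of the highest-scoring peak at each named lncRNA gene, 1 point per library, with a cross where the library had no peak. The top group was bound in all 4 libraries and lies at 88.3 or above throughout, the middle group was bound in CM alone with both CM points between 69.1 and 91.5, and the bottom group comes from the chosen lists and spans 0.6 to 95.

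Genes bound in CM alone had peaks at lower percentiles, and the highest of them was IRAIN on chromosome 15 at 98645863 to 98650787. IRAIN is an imprinted antisense RNA within IGF1R, the receptor of insulin-like growth factor. Its highest-scoring CM peaks spanned 98646311 to 98648792 and 98646569 to 98648521, at percentiles of 91.5 and 89.5. IRAIN is on the minus strand, so both of these peaks lay at its far end. Neither DMEM library had a peak at either end. An IGF1R start lies inside IRAIN, 2248 bp from the nearer end of IRAIN, and both CM peaks also lay at a coding start. SMAD5-AS1, at 86.5 and 76.6, likewise contains a start of SMAD5, 2045 bp from its nearer end, and both of its CM peaks also lay at a coding start. SMAD5 encodes a signal transducer of bone morphogenetic proteins. LOC124901778 in AGAP3, at 87.8 and 83.5, had CM peaks that also lay at a coding start.

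The other leading genes bound in CM alone had no listed coding start at their peaks. LINC03053 on chromosome X had 86.3 and 83.1 in the CM libraries, and LINC00974 on chromosome 17 had 87.8 and 72.5, from peaks at its far end. MIR193BHG, the host of miR-193b, had 74.3 and 86.6, with peak midpoints 1666 and 1390 bp from its start. LOC124902488 had 80.4 and 78.7, and LOC124907869 had 77.2 and 80.3. LINC01023 had 70.4 and 86.8, and LOC105375118 had 86.5 and 69.1. In each of these 7 genes the score stood below a percentile of 90 in both CM lists.

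Among 45 lncRNA genes studied in cancer that fell within the rule, 14 were bound in both CM libraries (31.1%), against 17.7% of all genes and 3.28% of the lncRNA genes away from coding ends. All 4 libraries had peaks at 6 of the 45, and 4 were bound in CM alone. DANCR, a lncRNA that holds SNORA26 and is known to keep progenitor cells undifferentiated, had percentiles of 88.6 and 86.6 in CM and 90 and 95 in DMEM. LINC00941, on chromosome 12 at 30795681 to 30802711, had 94.7 and 91.2 in CM and 72.5 and 90.6 in DMEM. NORAD, an abundant RNA that binds Pumilio proteins, had 67.7 and 58.7 in CM and 56.5 and 64.0 in DMEM. LINC02595 had 94.6 and 86.6 in CM and 42.3 and 77.4 in DMEM. EPB41L4A-AS1 and DLEU1 complete the 6.

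Those bound in CM alone were CCAT1, DLEU2, HEIH and LUCAT1. DLEU2, the host of miR-15a and miR-16, had 81.6 and 73.3 in the CM libraries. Its neighbour DLEU1, whose gene overlaps it on chromosome 13, had 68.5 and 31.4 in CM and 56.5 and 26.2 in DMEM at its own start. HEIH had 78.8 and 69.1, from peaks it shared with LINC00847. CCAT1, which lies in the region upstream of MYC on chromosome 8, had 48.3 and 22.3, and LUCAT1 had 2.0 and 0.6, next to the lowest scores of both lists. LINC01128, NRAV, VPS9D1-AS1 and JPX were bound in CM and also had a peak in DMEM library 2. LINC01128 had 32.9 and 47.7 in CM and 51.5 in DMEM library 2, from peaks it shared with LINC00115. NRAV, a lncRNA of the antiviral response, had 30.1 and 60.1 in CM and 47.9 in DMEM library 2. VPS9D1-AS1, also named MYU, had 74.3 and 82.2 in CM and 89.4 in DMEM library 2. JPX, a regulator of X-chromosome inactivation, had 51.6 and 61.4 in CM and 8.7 in DMEM library 2.

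Of 12 lncRNA genes reported to respond to or act with MYC, 6 were bound in both CM libraries (50%), 4 of them in all 4 libraries. The background over all genes was 17.7% for both CM libraries and 7.21% for all 4, and over the lncRNA genes away from coding ends it was 3.28% and 1.08%. These 4 were DANCR, DLEU1, MIR17HG and MINCR, and CCAT1 and DLEU2 were bound in CM alone. DANCR, DLEU1, CCAT1 and DLEU2 were also counted among the genes studied in cancer, so the shares of these lists are not separate results. MINCR, on chromosome 8 at 143280155 to 143281700, had percentiles of 81.6 and 78.0 in CM and 84.4 and 61.1 in DMEM. Its highest-scoring peaks in CM spanned 143280590 to 143282383 and 143280705 to 143282074, across the gene, and those in DMEM, at 143278813 to 143279172 and 143278657 to 143279225, lay beyond its low-coordinate end.

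Of 22 listed microRNA hosts, 3 (13.6%) were bound in both CM libraries. The background was 17.7% over all genes and 3.28% over the lncRNA genes away from coding ends. The 3 were MIR17HG in all 4 libraries, and MIR193BHG and MIR23AHG in CM alone. MIR23AHG, also named Smyca, had 85.2 and 67.5 in the CM libraries. Imprinted and X-linked dosage lncRNA genes had 2 of 14 bound in both CM libraries (14.3%, against the same 17.7% and 3.28%). These were JPX and MEG9, the second in CM alone at 35.1 and 5.6 and in 1 locus with LOC105370670. Of 18 lncRNA genes of other tissues, such as the neuronal SOX2-OT and DLX6-AS1, 0 were bound in both libraries of a condition. Over the lncRNA genes away from coding ends this share was 3.28% in CM and 1.08% in DMEM. A list of 18 is too short for 0 to stand apart from it. TTN-AS1 had a peak in CM library 2 alone. All these lists were chosen with earlier results of these data known, and some genes, such as JPX and MIR17HG, stand in more than 1 of them.

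The kind of name went with how often a gene was bound. Over all genes, 17.7% had a peak in both CM libraries and 7.21% in all 4. For the lncRNA genes away from coding ends these shares were 3.28% and 1.08%. In both CM libraries, only the -DT class below lay above the share over all genes. Of 10214 genes known only by a LOC number, 216 (2.11%) had a peak in both CM libraries, 62 of them in all 4. Of 2159 LINC genes 102 (4.72%) had peaks in both CM libraries, 36 of them in all 4, and of 1120 antisense genes 93 (8.30%) and 33. The 32 divergent genes of the -DT type had 8 (25%) and 3, and the 68 microRNA hosts had 10 (14.7%) and 5. Of 91 intronic or overlapping genes 1 was bound in both CM libraries, ANXA2R-OT1, with a peak also in DMEM library 2. Bound -DT genes included SLC25A28-DT, at 89.4 and 91.4 in CM and 19 and 86.3 in DMEM, and ITGB1-DT, bound in CM alone at 63.6 and 61.4. ITGB1-DT, SLC25A28-DT and ANXA2R-OT1 were picked as examples after their values were seen.

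Genes nearer to coding genes were bound more often. Between 2 and 5 kb from the nearest coding end, 9.36% and 7.51% of 1399 genes were bound in CM and 3.00% and 4.65% in DMEM. Between 5 and 20 kb these shares were 5.70% and 5.26% in CM and 1.62% and 3.36% in DMEM, and between 20 and 100 kb 4.17% and 3.62% in CM and 1.12% and 2.11% in DMEM. Beyond 100 kb, 1.77% and 1.36% of 4696 genes were bound in CM and 0.405% and 0.745% in DMEM. The share fell at each step in all 4 libraries. Genes that overlapped a coding gene, 4334 of the 14198, had 5.95% and 4.87% in CM and 1.64% and 2.91% in DMEM. The 9864 between coding genes had 3.48% and 3.08% in CM and 0.983% and 1.88% in DMEM.

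The share bound in both CM libraries was highest on chromosome 19, with 24 of 275 genes (8.73%), followed by chromosome 22 with 17 of 256 (6.64%). It was lowest on chromosome 4, with 8 of 821 (0.974%) among chromosomes 1 to 22 and X. Shares over all genes of the same chromosome were not computed, so whether this order is particular to these lncRNA genes was not tested.

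**Figure D3:**
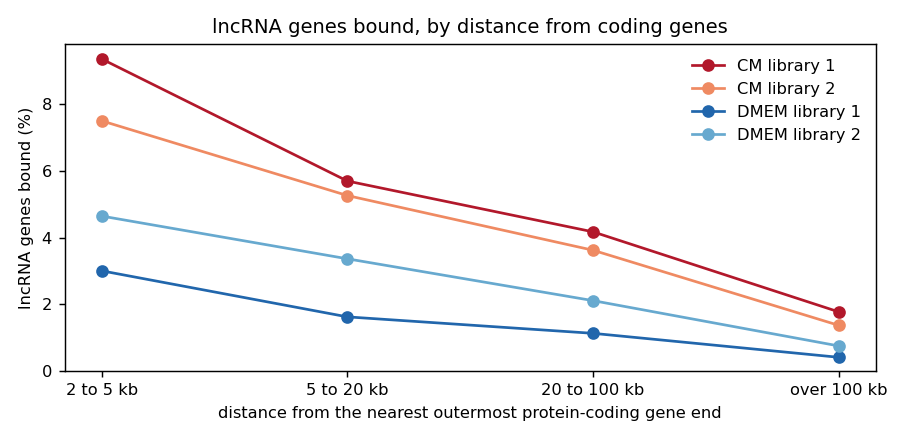
Percent of lncRNA genes bound (y axis) by distance from the nearest outermost end of a protein-coding gene (x axis, 4 classes), 1 line per library. Every line falls from left to right, in CM library 1 to 1.77% beyond 100 kb.

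Distance from outermost ends does not remove every coding start, since many coding genes have further starts inside. Outside chromosome 8, 338 of the lncRNA genes had a coding start of the RefSeq promoter table within 2000 bp of an end. Of these, 36.1% and 30.2% were bound in CM and 12.7% and 21.0% in DMEM. The other 13160 had 3.47% and 2.99% in CM and 0.912% and 1.73% in DMEM. The share with such a start was 27.7% of the 148 genes bound in all 4 libraries, 17.5% of the 160 bound in CM alone and 1.66% of those with no peak. That left 107 genes bound in all 4 libraries and 132 bound in CM alone with no coding start within 2000 bp. Which of the overlapping genes a shared peak serves was not tested.

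Where the strand was known, peaks lay at the start of the lncRNA gene. Among genes longer than 4000 bp, 87.5% and 89.2% of those bound in CM had peaks at the start end alone, and 91.1% and 90.5% of those bound in DMEM. Peaks at the far end alone made up 8.65% and 8.21% in CM and 8.86% and 7.59% in DMEM. Coding genes of that length had far-end peaks alone in 2.75% and 2.32% in CM and 3.43% and 2.9% in DMEM. Peaks counted at a start lay within 1000 bp of it by the definition of bound. The median peak midpoint lay 57 and 33 bp into the gene from the start in CM, over 401 and 353 genes, and 111 and 13.5 bp in DMEM, over 113 and 214. The peak covered the start itself at 61.8% and 60.1% of these genes in CM and at 46.0% and 50% in DMEM, where peaks were narrower.

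**Figure D4:**
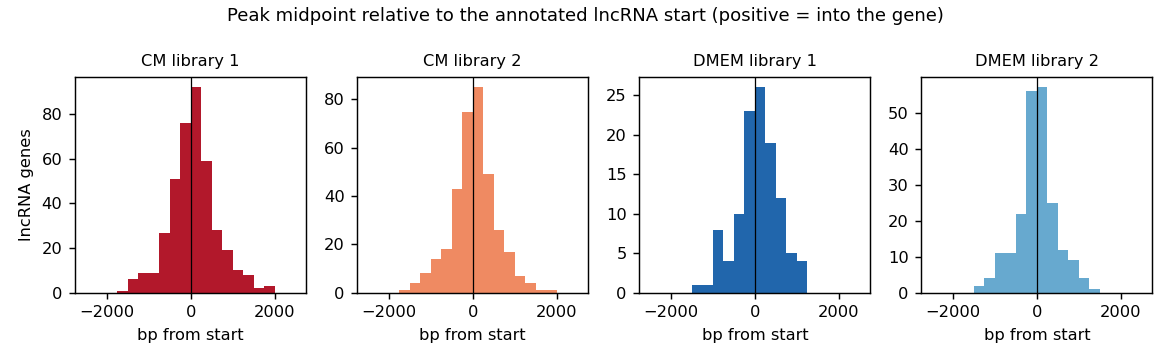
Number of lncRNA genes (y axis) by distance in bp of the peak midpoint from the annotated start (x axis, positive into the gene, bins of equal width), 1 panel per library with its own y axis. All 4 distributions centre near the start, with medians of 57 and 33 bp in CM and 111 and 13.5 bp in DMEM.

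The peaks at these lncRNA genes made up a small part of each list, 736 (4.81%) and 597 (4.67%) in CM and 183 (3.93%) and 334 (4.36%) in DMEM. Their median percentile was 51.6 and 48.8 in CM and 49.2 and 47.4 in DMEM, and that of peaks at coding ends was 58.6 and 56.3 in CM and 53.0 and 53.1 in DMEM. A percentile of 90 or more was reached by 7.07% and 6.87% of the lncRNA peaks in CM and 9.29% and 9.28% in DMEM. Of peaks at coding ends 13.5% and 12.7% did so in CM and 11.7% and 11.5% in DMEM. Between 84.7% and 86.9% of the lncRNA peaks lay at no outermost end of any gene outside the set. Outside chromosome 8, 22.8% and 23.3% of the lncRNA peaks in CM and 28.7% and 24.2% in DMEM lay at a coding start, the further starts inside coding genes included. Because neighbouring lncRNA genes can share a peak, the 654 genes with a peak in any library formed 593 separate loci, 58 of them with more than 1 gene. Of these loci, 139 were bound in all 4 libraries and 154 in CM alone.

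Some of these peaks also lay at small RNA genes. Of the 466 genes bound in CM, 9 (1.93%) had a highest-scoring peak that was also at a tRNA gene, 4 of them bound in all 4 libraries. The same shares over all bound genes were not computed. Whether such sharing is particular to these lncRNA genes was not tested. HCG11 on chromosome 6, beside the leucine tRNA gene TRL-CAG1-7, had percentiles of 95.4 and 95.8 in CM and 88.1 and 96.9 in DMEM. LINC02453 on chromosome 12, beside TRD-GTC1-1 and TRW-CCA4-1, had 64.3 and 22.3 in CM and 6.8 and 45.9 in DMEM. A microRNA gene was at the peak of 12 genes (2.58%). A small nucleolar RNA gene was at that of 4 (0.858%), DANCR, EPB41L4A-AS1, PCNA-AS1 and CTC-338M12.4. LOC124903896, beside MIR132 and MIR212, had 81.6 and 83.1 in CM and 68.0 in DMEM library 2, from peaks that did not all share bases. HCG11, LINC02453 and LOC124903896 were picked after their values were seen.

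Some shared peaks lay at pseudogenes of repeated families. Of the 30 genes bound in CM that shared a peak with a pseudogene, 7 did so with a copy of FAM86, and 4 of these were bound in all 4 libraries. LINC02021, beside FAM86HP, had percentiles of 97.0 and 98.7 in CM and 79.2 and 95.2 in DMEM. LOC105369250, beside FAM86KP, had 94.8 and 91.6 in CM and 95.7 and 91.3 in DMEM. LOC102723696, beside FAM86JP, had 96.6 and 92.3 in CM and 81.5 and 92.0 in DMEM. FAM85B, beside FAM86B3P on chromosome 8, had 89.0 and 83.1 in CM and 46.1 and 22.9 in DMEM. LOC105374358, beside FAM86EP, had 82.9 and 81.6 in CM and 65.0 in DMEM library 2. LINC02449 and LOC112268090, both beside FAM86FP and counted as 1 locus, were bound in CM alone, at 78.3 and 75.8 and at 36.8 and 75.8. FAM86 copies resemble each other closely, and how reads with several possible places were assigned is not given in the sources used here, so the split of signal among these copies is uncertain. These genes were singled out after their values were seen.

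The CpG content of a lncRNA promoter went with how often a peak overlapped it. Genes with a coding start within 2000 bp of an end were kept in these counts, and their part in this was not tested. A promoter was called CpG-rich when its 300 bases had a GC content of at least 55% and an observed-to-expected CpG ratio of at least 0.65. Of 8489 lncRNA genes with a promoter in the table, taking the outermost start, 706 (8.32%) were CpG-rich, compared with 56.9% of 15840 coding promoters. A peak overlapped 25.2% and 24.2% of the CpG-rich lncRNA promoters in CM and 7.37% and 14.4% in DMEM. Among the other 7783 it was 1.68% and 1.26% in CM and 0.270% and 0.591% in DMEM. Of the 706 CpG-rich lncRNA promoters, 509 had no peak in any library. CpG-rich coding promoters had 58.8% and 55.7% in CM and 19.7% and 36.5% in DMEM, which is 2.33 and 2.3 times the lncRNA share in CM and 2.67 and 2.52 times in DMEM. The lncRNA share was lower in 4 of 4 libraries, by a mean of -24.8 percentage points (exact sign permutation, p = 0.125, the smallest it allows). Outside CpG-rich promoters the coding share was 9.43 and 10.2 times the lncRNA share in CM and 15.7 and 11.3 times in DMEM.

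CpG-rich sequence was more frequent the more libraries had a peak. It marked 78.3% of the 60 lncRNA promoters overlapped by a peak in all 4 libraries, 65.5% of 84 with both CM libraries and 1 DMEM library, 54.6% of 97 with CM alone and 6.25% of 8148 with none. Median GC content was 68.0% for promoters with a peak in all 4 libraries, 63.3% for those in CM alone and 46.0% for those with none.

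CACGTG, which reads the same on both strands, was found in 7.40% of all 27301 promoters and in 4.77% of those of the lncRNA genes. It was in 12 of the 60 lncRNA promoters with a peak in all 4 libraries (20%), 6 of the 84 with 1 DMEM library (7.14%), 11 of the 97 in CM alone (11.3%) and 4.49% of those with none. Coding promoters showed 20.7%, 12.9%, 7.72% and 6.05% in the same 4 groups. CACGCG, counted on either strand, was in 11.4% of all promoters and in 28.3%, 29.8%, 17.5% and 2.87% of the lncRNA groups in that order. CATGTG, counted on either strand as well, was in 11.3% of all promoters and in 13.3%, 5.95%, 9.28% and 17.9% of the lncRNA groups. A promoter could hold more than 1 of these motifs. Among CpG-rich lncRNA promoters, a peak overlapped 34.8% and 33.3% of the 66 with CACGTG in CM and 13.6% and 22.7% in DMEM. For the 640 without it, these shares were 24.2% and 23.3% in CM and 6.72% and 13.6% in DMEM. CACGTG stood in the promoters of DLEU2, HEIH, NORAD, LOC124902225 and LINC01730. DANCR, MIR17HG, MIRLET7A1HG and LINC00941 held neither CACGTG nor CACGCG in the window.

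**Figure D5:**
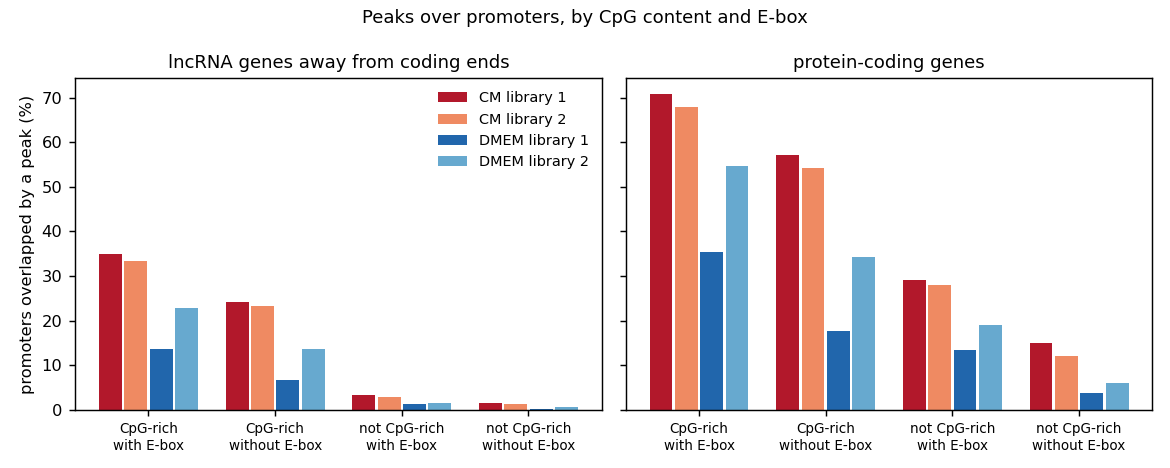
Percent of promoters of 300 bases overlapped by a peak (y axis), split by CpG content and by the E-box CACGTG (x axis), for lncRNA genes away from coding ends and for protein-coding genes, 1 bar per library. CpG-rich promoters with the E-box are highest in both panels, up to 34.8% for lncRNA genes and 70.8% for coding genes.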

How the data were processed

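MYC ChIP-seq of MIAPaCa2 cells was used, 2 immunoprecipitated libraries for CM and 2 for DMEM. Per the submitters' processing notes, the authors used build GRCh38, MACS2 2.1.1.20160309, Bowtie2 2.3.4, Trim Galore 0.4.3, Picard 2.9.0 and SAMtools 1.3.1, in no stated order. The sources used here do not give their settings or which input served as control. The deposited score of a peak is a whole number of at least 13, and in the authors' common lists the score is the mean over the joined peaks, checked on all 9901 and 3380 intervals. It served to order and filter peaks inside 1 list and never to compare lists.

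Peaks were matched to gene ends of RefSeq GRCh38.p14 with Python 3.11.15 and pandas 2.3.3, after a test on simulated data. Peak starts were shifted to count from 1. Strand and promoters came from a RefSeq promoter table that matched 8490 of the lncRNA genes, of which 8489 entered the promoter counts, with 1 promoter a gene. Conditions were compared by exact permutation over libraries, and shares by sign permutation over the 4 libraries. The genes, lists and tests were chosen with earlier results of these data known. Named genes are the 12 bound in all 4 libraries and the 10 bound in CM alone with the highest mean percentile, and listed genes bound in both CM libraries. Promoters are the first 4, 2 and 2 of these groups overlapped by a peak in both CM libraries, outside chromosome 8. The listed genes were ordered by their mean over the CM lists, without those already shown. The CpG and motif thresholds were set after the data were seen. CM and DMEM libraries share the numbers 1 and 2, with nothing in the labels that pairs them.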

Additional observations from a re-analysis of the deposited data

How the results depend on the processing

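Alternatives were windows of 500 or 2500 bp, the peak midpoint, a minimum score of 50, lists of equal length, a distance of 5000 bp from coding ends, no overlap with coding genes, 1 locus per shared peak, no LOC symbols, the annotated start alone and the authors' common lists. One more, no coding start within 2000 bp, was added after seeing the data. Under all of them CM exceeded DMEM in bound genes, by 1.21 to 3.19 times, and the lncRNA share stayed below that of coding genes, at 0.0663 to 0.163 of it. With a replicate block the ratio was 2.43, from 3.58 and 1.66 within numbers 1 and 2 (exact sign permutation p = 0.5, the smallest for 2 pairs).

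Genes bound in CM alone, 166 in the report, numbered 331 with the common lists, 30 in lists of equal length, 92 without overlap with coding genes and 78 without LOC symbols. Those bound in all 4 libraries, 153 in the report, numbered 91 both without overlap and without LOC symbols. Genes bound in DMEM alone, 0 in the report, numbered 1 with the common lists, 7 in lists of equal length and 3 by midpoint. Leaving out 1 library at a time gave 174 to 305 genes bound in CM alone, 153 to 292 bound in all remaining libraries and 0 to 3 bound in DMEM alone. The ratio of CM to DMEM was then 1.79 to 3.31, the share relative to coding genes 0.0787 to 0.0874, and the difference in the share bound throughout -10.6 to -7.14 points. Without overlap with coding genes 9864 of the 14198 genes were tested, and without LOC symbols 3984. The cause of the changes in these counts was not tested. Depth is unknown, so a missing peak is one not called.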
